A study of Mus musculus with 5 samples.

Results

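The 10 genes described here encode fibronectin, the matricellular proteins that modify how cells hold on to a matrix, versican, and the proteins of elastic fibres. They are Fn1, Tnc, Sparc, Thbs1, Thbs2, Postn, Vcan, Eln, Fbn1 and Fbln2, which make up 10 of the 27729 genes in the tables. They were taken by name and not by their values, though earlier results of these data were known. All 10 are among the 13346 genes kept for counting, which had an expected count of at least 10 in at least 1 library. RNA was sequenced while a chemically defined medium turned mouse embryonic fibroblasts (MEFs) towards neuron-like cells, which the labels name 6C and the study names 5C. The MEFs came from ICR embryos without head and internal organs, were passaged in serum medium, enriched for strongly attached cells and plated on Matrigel, itself a basement membrane extract. There was 1 library for each of the 5 time points, namely MEFs in serum medium on day 0 and the same cells on days 2, 5, 10 and 14 of the defined medium. The treatment text gives the last day as 15, where the label of that library reads 14, and gives 5000 cells per well. No library came from cells kept in serum medium for the same time, so time in culture and the change of medium cannot be told apart. The whole culture was lysed, so neuron-like cells and cells that did not convert were measured together.

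Fibronectin is a secreted glycoprotein that cells assemble through integrins into the first fibrils of a new matrix, and on which collagens, fibrillin and growth factor complexes are then laid down. Matricellular proteins such as tenascin-C, SPARC, periostin and the thrombospondins do not build fibres of their own but bind to them and to cell receptors, and are best known from development, wounds and scars. Elastic fibres consist of a core of cross-linked elastin on a scaffold of fibrillin microfibrils, and fibulins tie both together. In the embryo, versican and tenascin-C also line the paths of migrating neural crest cells and axons.

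The start regions of 3 of these genes are shown because Postn, Thbs2 and Tnc had the highest day 14 values relative to day 0 among the 10. Windows of 300 bases, from 250 before to 50 after the annotated start, were taken from RefSeq on GRCm38.p6 and are written 5′ to 3′ on the strand of the gene. The windows lie at chr3:54360857-54361156 (plus strand) for Postn, chr17:14694213-14694512 (minus strand) for Thbs2 and chr4:64046966-64047265 (minus strand) for Tnc. Capitals mark TATAAA (the core of the TATA box), GGGCGG (known as the GC box) and CCAAT, or their reverse complements.
Postn: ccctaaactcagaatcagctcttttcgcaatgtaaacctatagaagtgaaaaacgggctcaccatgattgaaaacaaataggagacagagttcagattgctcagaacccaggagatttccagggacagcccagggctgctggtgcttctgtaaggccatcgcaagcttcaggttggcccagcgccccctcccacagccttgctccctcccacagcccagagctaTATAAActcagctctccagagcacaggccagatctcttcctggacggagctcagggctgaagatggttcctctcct
Thbs2: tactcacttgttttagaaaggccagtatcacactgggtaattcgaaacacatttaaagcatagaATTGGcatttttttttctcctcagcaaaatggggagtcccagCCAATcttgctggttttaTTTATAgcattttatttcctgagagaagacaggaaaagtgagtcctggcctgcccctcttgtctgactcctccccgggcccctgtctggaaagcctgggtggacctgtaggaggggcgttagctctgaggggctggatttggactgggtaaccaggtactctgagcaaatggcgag
Tnc: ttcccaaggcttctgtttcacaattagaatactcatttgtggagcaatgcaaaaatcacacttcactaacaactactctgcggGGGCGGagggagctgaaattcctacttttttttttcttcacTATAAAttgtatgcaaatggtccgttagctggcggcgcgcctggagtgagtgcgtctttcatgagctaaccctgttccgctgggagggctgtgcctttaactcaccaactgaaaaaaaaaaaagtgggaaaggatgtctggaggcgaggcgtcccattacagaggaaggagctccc
The TATAAA of Postn starts 26 bases before the gene start, and those of Thbs2 and Tnc start 126 bases before it, in Thbs2 on the opposite strand. A window was found for 7 of the 10 genes (Tnc, Sparc, Thbs2, Postn, Vcan, Fbn1 and Fbln2), and on either strand TATAAA was in 3 of the 7 (Postn, Thbs2 and Tnc) and in 13.6% of all 32851 windows of this length. GGGCGG was in 4 of the 7 (Tnc, Vcan, Fbn1 and Fbln2) and in 35.7% of all windows, and CCAAT was in 2 of the 7 (Thbs2 and Vcan) and in 37.4% of all. GGAATG, which TEAD factors bind, and TGANTCA, which AP-1 binds, were in none of the 7 windows and in 14.7% and 7.81% of all. These motifs were chosen after the values had been seen, and a match describes letters in a window, not a bound site.

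The expected counts, which are RSEM's estimates of the reads from each gene, came to 2253748 in the smallest library, day 2, and to 3890334 in the largest, day 0. A count of 3 corresponds to 0.771 to 1.33 per 1000000 counts of a library. Changes are log2 ratios of normalized counts (expected counts over edgeR's effective library size, scaled to the geometric mean) with a pseudocount of 1. The ranges beside them are exact 95% intervals of the ratio without a pseudocount, which cover counting error only. With 1 library per time point no test was possible, so "rose" and "fell" are used below for values over 2-fold apart. Of all genes kept, 15.2% were over 2-fold above day 0 and 13.1% over 2-fold below it on day 2. These shares were 20.2% and 13.6% for day 5, 28.7% and 22.3% for day 10, and 24.5% and 19.9% for day 14. Levels between genes are given as TPM, which RSEM divides by gene length. TPM moved the median change of all genes kept, which was −0.03, 0.05, 0.14 and 0.07 with normalized counts on days 2, 5, 10 and 14, to −0.20, 0.61, 1.09 and 0.78. With TPM the genes over 2-fold apart on day 10 split into 7057 above and 904 below, against 3826 and 2974 with normalized counts. In RNA from a whole culture, fewer cells of a type and less RNA per cell cannot be told apart.

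As a group the 10 genes were low on day 2, and some of them stood far above day 0 by days 10 and 14 while others stayed far below it. Their joint share of all expected counts was 1.22%, 0.810%, 1.47%, 2.01% and 1.93% from the first to the last library. This share leaves out edgeR's TMM factors, which were 0.856, 0.808, 1.11, 1.19 and 1.10. It is thus not on the scale of the normalized counts, and the order of the libraries can differ there. On day 2 none of the 10 was over 2-fold above day 0 and 4 fell (Thbs1, Vcan, Eln and Fbln2), with a median change of −0.83. On day 5, 2 rose (Thbs2 and Eln) and Thbs1 alone was below, with a median of 0.11. On day 10, 3 were above (Thbs2, Postn and Eln) and 2 below (Thbs1 and Fbln2), with a median of 0.55. On day 14, 4 were above (Tnc, Thbs2, Postn and Eln) and Thbs1 and Fbln2 were again below, with a median of 0.43. The counts above and below day 0 are to be read against the shares over all genes, which were also highest on days 10 and 14. Those shares were 28.7% above and 22.3% below on day 10, and 24.5% and 19.9% on day 14. On day 10 both counts of the 10 genes lay near them, as did the count below on day 14. A split into genes above and below was thus not particular to the 10 on those days. The 2 thrombospondins stood at opposite ends of this range on days 5 and 10, with Thbs1 the lowest of the 10 and Thbs2 the highest.

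**Figure D1:**
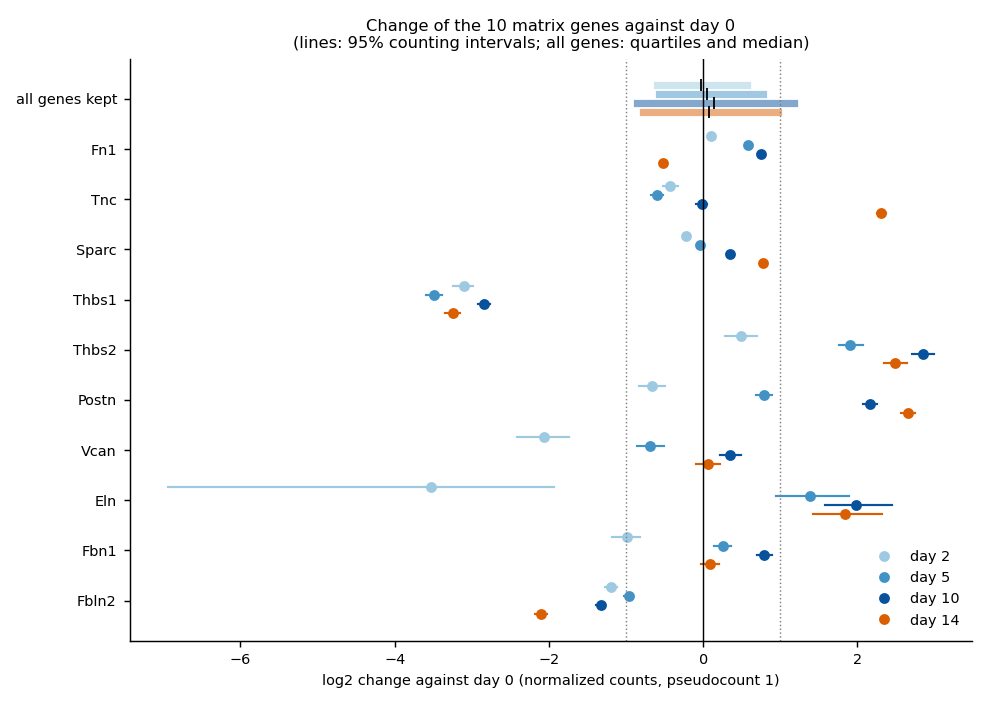
Change of each of the 10 genes against day 0, with log2 change of normalized counts on the x axis and the genes on the y axis; points are days 2, 5, 10 and 14, lines are 95% counting intervals, dotted lines mark 2-fold, and the bars at the top span the quartiles of all genes kept with the median as a tick. Thbs1 lies between −3.49 and −2.84 on each day, Thbs2 reaches 2.84 on day 10, and the orange point of Tnc at 2.31 stands apart from its other 3 points.

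After the fall of 4 genes by day 2, the step from day 2 to day 5 brought 5 rises (Thbs2, Postn, Vcan, Eln and Fbn1) and no fall, with a median of 0.86. Of all genes kept, 19.0% rose and 12.5% fell over that step, with a median of 0.12. From day 5 to day 10, Postn and Vcan rose and none fell, with a median of 0.58, against 12.8% and 9.50% of all genes and an overall median of −0.01. From day 10 to day 14, Tnc rose and Fn1 fell, with a median of −0.33, against 4.73% and 8.33% of all genes and an overall median of 0.02. The steps share libraries with the changes against day 0 and are not independent of them.

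Fn1 (fibronectin; chr1:71585520-71653200, minus strand, GRCm38) had normalized counts of 13458, 14421, 20157, 22611 and 9373 in the libraries of days 0 to 14, the order kept for every gene below. Its highest library was day 10 and its lowest was day 14, the library next in time. From day 10 to day 14 it fell 2.41-fold (log2 change −1.27, −1.30 to −1.24), while no change against day 0 reached 2-fold in normalized counts. The direction of Fn1 against day 0 on days 2 and 14 depends on the scale, since TPM gave −0.19 on day 2 and 0.26 on day 14. The level per length was 1192 TPM before the change of medium, 3167 TPM on day 10 and 1430 TPM at the end, and in TPM the changes on days 5 and 10 were 1.23 and 1.41. From day 10 to day 14 the change in TPM with the median of all genes set to 0 did not reach 2-fold for Fn1. The genes closest to Fn1 in profile, by Euclidean distance between the changes on days 2, 5, 10 and 14, were Usp1 (0.245), Ddr2 (0.270) and Pcdh7 (0.271). Because neighbours are chosen by these changes, here and below, a highest or lowest library shared with them is no separate result. Ddr2 encodes a collagen receptor of fibroblasts, and it had normalized counts of 480.5, 579.8, 679, 709 and 342.

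**Figure D2:**
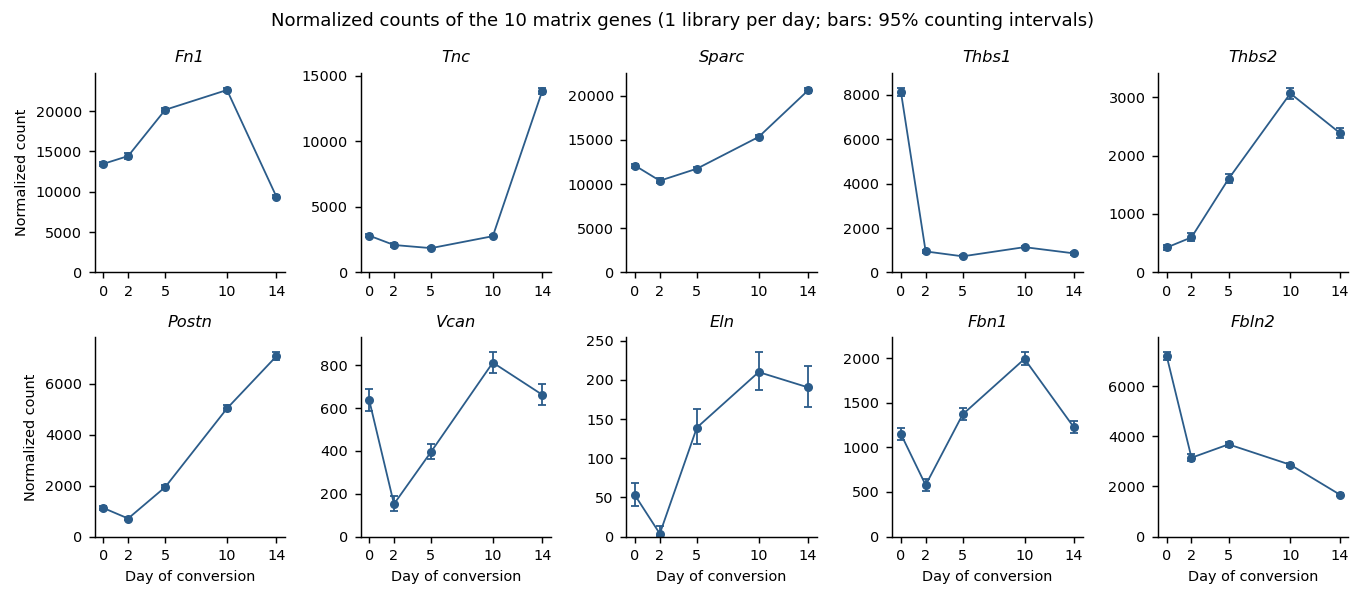
Normalized count (y axis, linear from 0) of each of the 10 genes against the day of conversion (x axis), 1 library per day; bars are 95% counting intervals and lines only join the points. Tnc stays between 1846 and 2797 up to day 10 and stands at 13832 on day 14, Thbs1 drops from 8138 to 944 by day 2, and Postn goes from 709 on day 2 to 7091 on day 14.

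Tnc (tenascin-C, a large hexameric glycoprotein that weakens adhesion to fibronectin; chr4:63959785-64047015, minus strand) had normalized counts of 2797, 2085, 1846, 2757 and 13832. Up to day 10 its libraries lay within 2-fold of each other in normalized counts, and day 14 stood apart above them. From day 10 to day 14 Tnc rose 5.02-fold (log2 change 2.33, 2.28 to 2.38), which placed it at rank 81 of the 13346 genes kept in that step. Against day 0 the day 14 value was 2.31 (2.25 to 2.36). The Tnc values on days 5 and 10 depend on the scale, at −0.60 and −0.02 in normalized counts and 0.11 and 1.10 in TPM, and the TPM levels up to day 10 ran from 89.0 to 309. The nearest profiles were those of Nes (0.618), Tubb2a (0.708) and Tubb2b (0.775), which encode nestin, the intermediate filament of neural progenitors, and a pair of neuronal beta-tubulins. Nes had normalized counts of 670.1, 664, 563, 787 and 2949, and Tubb2b of 801, 636, 571, 1325 and 4396. In both, as in Tnc and as their choice by profile would bring about, day 14 was the highest library. The antisense gene 8030451A03Rik overlaps exons of Tnc, and since the library kit does not mark strand their reads cannot be told apart, but it held at most 0.718% as many counts as Tnc.

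Sparc (SPARC or osteonectin, a collagen-binding protein that loosens cell adhesion; chr11:55394500-55423183, minus strand) had normalized counts of 12086, 10378, 11742, 15339 and 20614. Its lowest library was day 2 and its highest day 14. No change of Sparc against day 0 reached 2-fold, and the largest was 0.77 (0.74 to 0.80) on day 14. In TPM, where all genes had higher medians, the changes of Sparc on days 10 and 14 were 1.49 and 1.63. It was the most abundant of the 10 per length in every library, with 1445 TPM on day 2 and 6210 TPM on day 14. The closest profiles were those of Cdc42se1 (0.118), Gga3 (0.176) and Ppp2r5a (0.212), and among the 10 genes Sparc lay nearest to Fbn1 (1.16).

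Thbs1 (thrombospondin-1, a trimeric protein that binds CD47 and CD36 and activates latent TGF-β; chr2:118111876-118127133, plus strand) had normalized counts of 8138, 944, 723, 1137 and 856. Day 0 stood far above the other libraries, which lay within 2-fold of each other. The fall was 8.61-fold by day 2 (log2 change −3.11, −3.24 to −2.98), and 11.2-, 7.15- and 9.50-fold by days 5, 10 and 14. Per length, 489 TPM on day 0 stood against 47.1 TPM on day 2. The nearest profiles were those of Fhl1 (0.433), a LIM-domain protein of muscle and fibroblasts, C1qtnf3 (0.658) and Smad6 (0.712), an inhibitor of BMP signalling. Fhl1 had normalized counts of 1004.5, 101, 105, 116 and 115, with day 0 again far above the rest.

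Thbs2 (thrombospondin-2, a close relative of thrombospondin-1 that does not activate TGF-β; chr17:14665500-14694235, minus strand) had normalized counts of 426, 599, 1600.2, 3063 and 2388. The counts were lowest on day 0 and highest on day 10. It rose 3.75-fold by day 5 and 7.18-fold by day 10 (log2 change 2.84, 2.70 to 2.99), and was 5.60-fold above day 0 on day 14. Thbs1 and Thbs2 were the pair of the 10 genes with the greatest distance between profiles (10.4). Per length, Thbs1 stood above Thbs2 on day 0 (489 against 25.2 TPM) and on day 2 (47.1 against 29.5 TPM). The order was the reverse in the later libraries, with 72.1 against 155 TPM, 161 against 409 TPM and 97.7 against 260.2 TPM, and the counting intervals of the pair did not overlap in any library. The nearest profiles to Thbs2 were those of Rasa3 (0.211), Sh3pxd2b (0.248), which encodes a scaffold of podosomes, and Zfp395 (0.298).

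Postn (periostin, a secreted protein that joins tenascin-C and fibronectin to collagen; chr3:54361109-54391037, plus strand) had normalized counts of 1121, 709, 1944, 5037 and 7091. The lowest library was day 2 and each later one was higher than the one before. Postn rose 2.74-fold from day 2 to day 5 and 2.59-fold from day 5 to day 10. By day 14 it was 6.32-fold above day 0 (log2 change 2.66, 2.57 to 2.75), the highest of the 10 on that day. Among the 10 genes ordered by TPM it moved from rank 5 on day 0 to rank 2 by day 14. The nearest profiles were those of Mef2c (0.286), a transcription factor of muscle, neural crest and neurons, Arhgef10l (0.368) and Gcnt1 (0.468). Mef2c had far lower counts, at 11.9, 7.24, 22.8, 50.7 and 93.6 normalized counts.

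Vcan (versican, the large hyaluronan-binding proteoglycan of loose embryonic matrix; chr13:89655312-89742509, minus strand) had normalized counts of 636, 152, 396, 813 and 662. Day 2 stood well below the other libraries, and days 0 and 14 lay close together. It fell 4.17-fold by day 2 (log2 change −2.06, −2.41 to −1.74), rose 2.59-fold from day 2 to day 5 and 2.05-fold from day 5 to day 10. On day 14 the interval of its change against day 0 spanned no difference (0.06, −0.10 to 0.21), and TPM gave the opposite sign there. The closest profiles were those of Lima1 (0.358), an actin-binding protein, Cyp1b1 (0.388) and Clock (0.448). Lima1 had normalized counts of 598, 134, 458, 764 and 553, with the same low library on day 2.

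Eln (elastin, the cross-linked core of elastic fibres; chr5:134702593-134747323, minus strand) was the least abundant of the 10 per length in every library, between 0.41 TPM on day 2 and 64.4 TPM on day 10. Its expected counts were 53, 2, 159, 294 and 213, or 52.5, 3.62, 139, 209.9 and 190.4 normalized counts. Only 2 reads stand behind the day 2 value, so the change of −3.53 against day 0 carries an interval from −6.94 to −1.93. From day 5 on Eln stood above day 0, by 1.39 (0.95 to 1.88), 1.98 (1.58 to 2.45) and 1.84 (1.42 to 2.32). The value of the step from day 2 to day 5, 4.92 (3.39 to 8.32), also rests on those 2 reads. The nearest profiles were those of Vgll4 (0.630), a cofactor of TEAD factors, Rev1 (0.835) and Zfp146 (0.949), and Vgll4 and Rev1 were, like Eln, near the floor on day 2, with 1.81 and 2.13 normalized counts.

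Fbn1 (fibrillin-1, the main protein of microfibrils; chr2:125300594-125507993, minus strand) had normalized counts of 1149, 577, 1370.3, 1992 and 1224. Its lowest library was day 2 and its highest day 10. The day 2 change against day 0, −0.99 (−1.18 to −0.81), lay at the 2-fold line, and from day 2 to day 5 Fbn1 rose 2.37-fold. In normalized counts day 14 lay within the counting error of day 0 (0.09, −0.02 to 0.20). In TPM the changes of Fbn1 on days 10 and 14 were 1.94 and 0.95, from 40.9 TPM on day 0 to 160 and 80.1 TPM. The nearest profiles were those of Fam208b (0.185), Mnt (0.209) and Prkar2a (0.217).

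Fbln2 (fibulin-2, which links fibrillin, elastin and basement membranes; chr6:91212455-91272540, plus strand) had normalized counts of 7189, 3144, 3678, 2864 and 1675. Day 0 was the highest library and day 14 the lowest. It fell 2.29-fold by day 2 and 2.51-fold by day 10, and by day 14 it was 4.29-fold below day 0 (log2 change −2.10, −2.18 to −2.03). The day 5 value was −0.97 (−1.02 to −0.91). Of the elastic fibre genes among the 10, Fbln2 was thus below day 0 on day 14 when Eln was above it, in normalized counts and in TPM. The nearest profiles were those of Bid (0.374), Jade1 (0.432) and Basp1 (0.515).

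Ordered per length, Sparc, Fbln2 and Fn1 led on day 0 with 2010.2, 1354 and 1192 TPM. On day 14 the order began with Sparc, Postn, Fn1 and Tnc at 6210, 2104, 1430 and 1283 TPM, and Fbln2 had 348 TPM. The other end of the order was the same in each library, with Eln last. Most neighbours in these orders had counting intervals that did not overlap, except Vcan and Fbn1 in 3 libraries (days 2, 10 and 14), Fbn1 and Thbs1 in 2 libraries (days 5 and 10), and Thbs2 and Tnc in that of day 5. Together the 10 genes held 5512, 3229, 7863, 12229 and 11935 TPM in the 5 libraries.

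**Figure D3:**
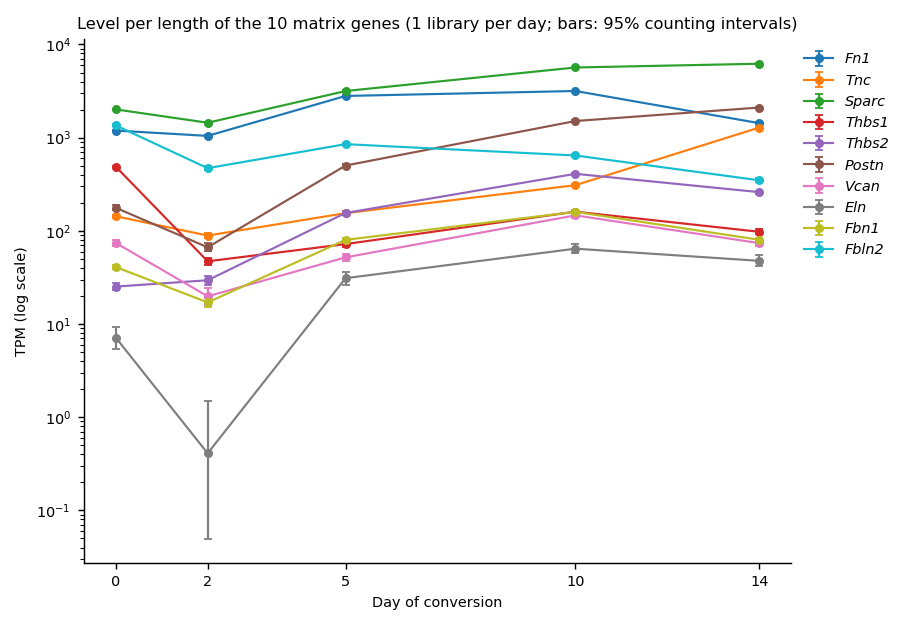
Level per length (TPM, log scale on the y axis) of the 10 genes by day of conversion (x axis), 1 library per day, with 95% counting intervals. Sparc is the top line throughout, Eln the bottom one, Thbs1 and Thbs2 cross between days 2 and 5, and on day 14 Postn lies above Fn1 and Tnc just below it.

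The length that RSEM gives a gene is the mean over its transcripts weighted by their estimated abundance, so it moves when the estimated mix of transcripts moves. For Vcan, whose splice forms differ by long exons for chondroitin sulfate attachment, it was 3020, 2258, 4386, 4389 and 5792 bases from day 0 to day 14. The Vcan estimate was thus shortest on the day with the fewest reads of this gene and longest on day 14. For Fn1, which is spliced at its extra domains, it was 3971, 4038, 4144, 5647 and 4233 bases, with day 10 apart from the rest. For Fbln2 it was 1876.5, 1969.9, 2492, 3521 and 3105 bases. For Postn it was 2242, 3121, 2238, 2645 and 2183 bases, and the longest estimate, on day 2, coincided with its lowest count. Tnc, Sparc and Thbs1 kept nearly the same length, between 6828 and 7050.3, 2114 and 2148, and 5602 and 5848 bases. Thbs2, Eln and Fbn1 had 1 fixed length each, of 5922, 2583 and 9847 bases. No error is attached to these lengths in the tables, and which transcripts lay behind them was not tested here.

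**Figure D4:**
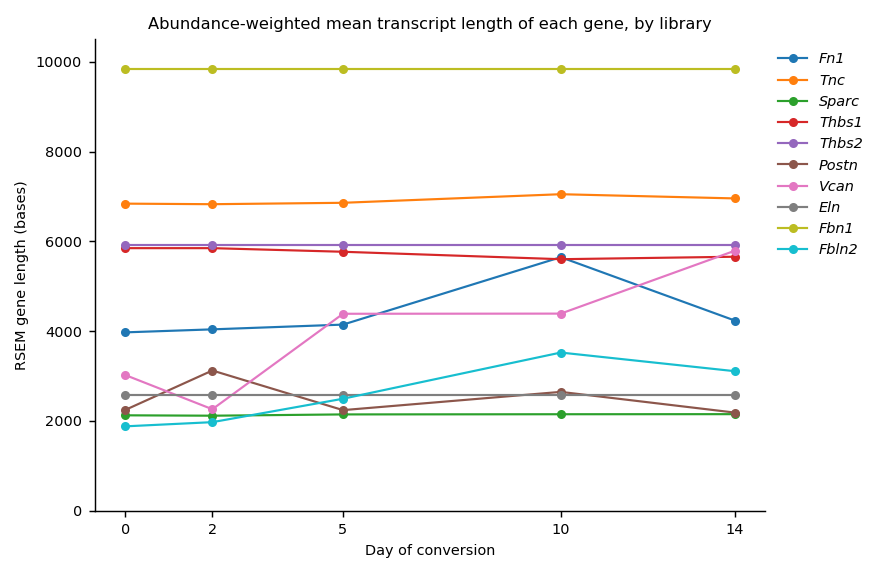
RSEM gene length in bases (y axis, from 0) of the 10 genes by day of conversion (x axis), 1 library per day, with no error available. Vcan moves between 2258 and 5792 bases, Fn1 has a single high value of 5647 bases on day 10, and Thbs2, Eln and Fbn1 are flat.

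Changes in these libraries moved with gene length. When the genes kept were split into 5 equal groups by mean length, the shortest group had median changes of 0.12, −0.57, −1.15 and −0.78 on days 2, 5, 10 and 14, and the longest group −0.14, 0.33, 0.92 and 0.50. Fn1, Tnc, Thbs1, Thbs2 and Fbn1 belong to the longest group, Vcan to the next, and Sparc, Postn, Eln and Fbln2 to the middle one. In the longest group 48.0% of genes were over 2-fold above day 0 on day 10, when Thbs2 alone of its 5 genes was. From day 10 to day 14 the longest group had a median of −0.39, and 1.72% of its genes rose over 2-fold, among them Tnc. The part of gene length in the values of these genes was not tested.

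Partners of the 10 genes were taken from 4 lists. The counts of each list that rose and fell are to be read against the shares of all genes kept. On days 2, 5, 10 and 14 those shares were 15.2%, 20.2%, 28.7% and 24.5% above day 0. Below day 0 they were 13.1%, 13.6%, 22.3% and 19.9%. Of 20 elastic fibre partners 19 were kept, and 6, 5, 5 and 5 rose and 5, 5, 6 and 7 fell against day 0 on days 2, 5, 10 and 14. Lox, the lysyl oxidase that cross-links elastin and collagen, had normalized counts of 7358, 1087, 592, 521 and 447, a log2 change of −4.04 by day 14. Fbln5, the fibulin that guides elastin onto microfibrils, had 1507, 199, 256, 351 and 238 normalized counts. Fbln1 and Mfap2, which bind fibronectin and microfibrils respectively, rose from 72.2 to 390 and from 100 to 512 normalized counts by day 14. Thus Eln stood above day 0 on days 5 to 14 while Lox and Fbln5 stood below it. The medians of this list on the 4 days were 0.28, −0.41, −0.36 and −0.81, and with TPM they were 0.27, 0.80 and 0.03 on days 5, 10 and 14, against TPM medians over all genes of 0.61, 1.09 and 0.78.

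Of 18 other matricellular genes 17 were kept, and 4, 7, 8 and 6 rose and 7, 4, 4 and 4 fell on the 4 days, with medians of 0.22, 0.43, 0.23 and 0.22. The signs depend on low genes and on the scale, since the medians were −1.34, −0.50, −0.12 and −0.075 over genes with 10 or more counts in every library, and the day 5 median was −0.40 in TPM with the median of all genes set to 0. Spp1 (osteopontin, a secreted integrin ligand) had normalized counts of 309, 17547, 41767, 7994 and 4055, with its highest library on day 5. Sparcl1 (hevin, the closest relative of SPARC) went from 3.96 normalized counts in MEFs to 811 on day 10 and 756 in the last library. Ccn2 (connective tissue growth factor, a target of YAP/TAZ-TEAD and TGF-β) had 5009, 429, 214, 129 and 157 normalized counts. Day 0 was the highest library of Ccn2 by far, as it was for Thbs1. Comp (thrombospondin-5) went from 2.97 to 139 normalized counts by day 14, starting from 3 counts on day 0. The other thrombospondins of the list, Thbs3 and Thbs4, had values of −0.37 and 0.17 on day 14 and were named after these were seen. Thbs4 had 15.8, 5.43, 75.3, 15.7 and 17.9 normalized counts, with its highest library on day 5 (2.18, 1.47 to 3.12).

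Of 19 versican partners and hyaluronan enzymes 13 were kept, Hapln2 had 0 counts in every library, and 1, 4, 7 and 5 rose and 3, 3, 1 and 3 fell, with medians of −0.78, 0.49, 1.30 and 0.68. Over genes with 10 or more counts in every library these were −0.66, −0.19, 0.45 and 0.031, and in TPM with the median of all genes set to 0 they were −0.22, 0.0080, 0.67 and 0.28. Has2, the hyaluronan synthase of embryonic mesenchyme, had normalized counts of 70.3, 3.64, 130, 371 and 113. Its lowest library was day 2 and its highest day 10, as for Vcan. The day 2 value of Has2 rests on an expected count of 2.01, and its change of −3.94 carries an interval from −7.35 to −2.37. Adamts4 and Adamts20, proteases that cleave versican, had 3.96 and 0.99 normalized counts on day 0, and 85.7 and 98.5 on day 10. Their day 0 values rest on expected counts of 4 and 1. Hyal1, a lysosomal hyaluronidase, went from 12.9 to 108 normalized counts on day 10.

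Of 16 receptors for these proteins 15 were kept, and 3, 5, 6 and 5 rose and 3, 0, 1 and 0 fell, with medians of −0.20, 0.32, 0.87 and 0.29. In TPM with the median of all genes set to 0, the receptor medians were 0.11, 0.33, −0.13 and −0.23, and over genes with 10 or more counts in every library the day 2 median was 0.030. Itgb1, the beta chain of the main fibronectin receptors, had normalized counts of 5819, 2030, 3373, 4386 and 4038 and was chosen after its values were seen. Itgb3, the beta chain of the vitronectin receptor that also binds fibronectin and osteopontin, had 12.9, 340, 119, 59.5 and 27.6 normalized counts. Cd36, a receptor of the thrombospondins, went from 11.9 to 408 normalized counts by day 14, when Thbs1 was below day 0 and Thbs2 above it. Itga4 and Itgb8, integrin chains for fibronectin and for latent TGF-β, had 24.8 and 8.91 normalized counts on day 0, 406 and 183 on day 10, and 86.5 and 115 on day 14.

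**Figure D5:**
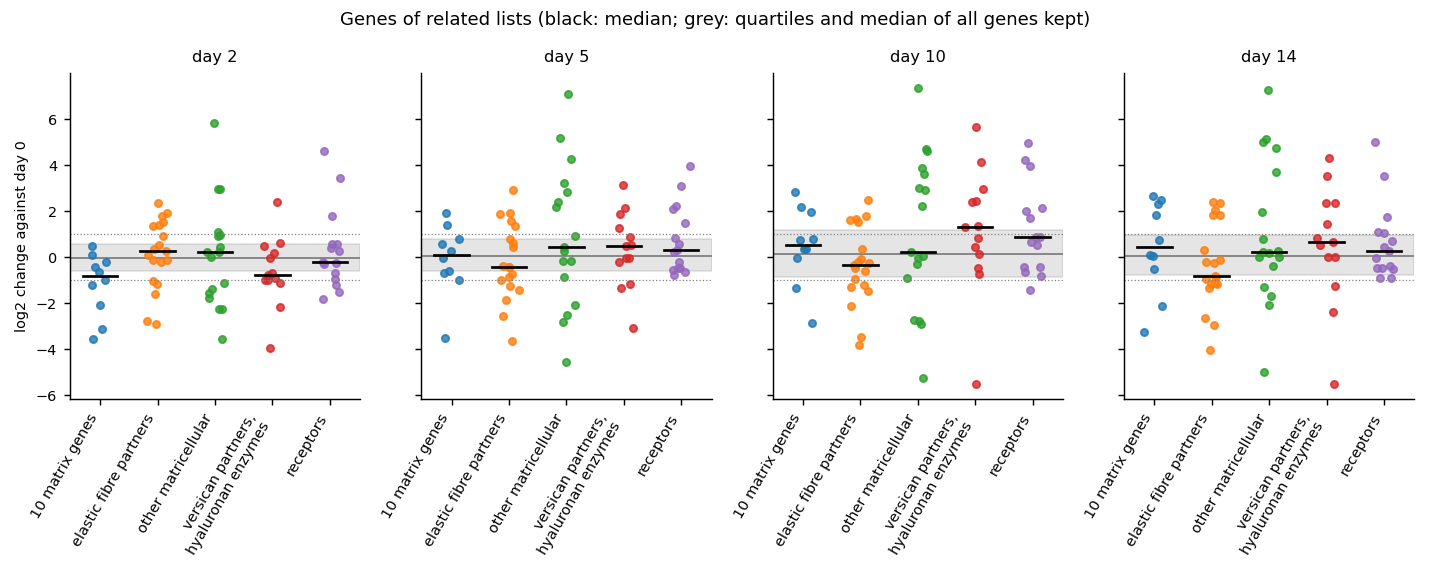
Log2 change against day 0 (y axis) of each gene kept in the group of 10 and in the 4 lists of partners (x axis), in 1 panel per day; black bars are list medians and the grey band spans the quartiles of all genes kept, with their median as a line. The lists spread widely in both directions, with the elastic fibre partners at a median of −0.81 and the 10 genes at 0.43 on day 14.

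Markers of cell types moved over the same days, and their counts are to be read against the same shares of all genes kept. Of 13 fibroblast markers all were kept and none was at 0, and 4, 5, 4 and 5 rose and 2, 3, 4 and 4 fell on days 2, 5, 10 and 14. Their summed normalized counts were 34905, 33907, 37702, 51324 and 64157, of which Col1a1 made up 13963 on day 0 and 22717 on day 14. On day 14 Lum, Dcn, Col3a1, Pdgfra and Fap were above day 0, by 5.91, 4.86, 3.87, 2.44 and 1.07. On the same day S100a4, Twist2, Prrx1 and Thy1 were below day 0, by −2.41, −2.71, −1.50 and −1.39. The label of fibroblasts on day 0 rests on the collagens, S100a4, Pdgfrb, Prrx1 and Thy1, while Lum, Pdgfra, Dcn and Fap had only 23.8, 94.0, 102 and 20.8 normalized counts there. Smooth muscle markers, all 6 kept, summed to 51827, 8076, 1917, 769 and 424, and all 6 fell on days 5, 10 and 14. Acta2 at 32045 and Tagln at 16174 made up most of their sum on day 0, the day on which Thbs1 was highest. These sums are not divided by gene length, so they do not rank 1 list against another. Of 9 Schwann cell and neural crest markers all rose on days 10 and 14, from a sum of 111 on day 0 to 217, 1198, 7306 and 10076, with Sox10 at 6.93, 21.7, 280.3, 1055 and 1993. The highest sum was on day 14, as it was for the fibroblast markers, and Tnc, Sparc and Postn were also highest on that day. All 10 macrophage markers rose on day 2, although Ptprc only from 0 to 1 count, and their sums were 134, 1035, 1095, 632 and 557. Neuron markers, 4 of 7 kept with Rbfox3 at 0 in every library, summed to 668, 354, 239.6, 257 and 376. On day 14, 2 of the 4 rose and 2 fell. Tubb3, which encodes the TuJ1 antigen, went from 22.1 to 161 normalized counts and Snap25 from 0 to 6.27. Map2 went from 196 to 45.6 and Stmn2 from 448 to 163. The remaining markers had low sums, 243 to 10.9 for 6 endothelial genes, 71.1 to 9.02 for 8 of skeletal muscle and 389 to 18.8 for 7 epithelial genes from day 0 to day 14 (474 on day 2), with Ocln at 0 throughout. The part of these cell types in the values of the 10 genes was not tested.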

How the data were processed

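RNA of MEFs on day 0 and on days 2, 5, 10 and 14 of induction medium was sequenced, with 1 library per time point, and libraries were grouped by the day in their labels. Per the submitters' processing notes, Bowtie and RSEM were used with the genome build mm10; versions, annotation and filters are not given in the sources used here. The authors deposited expected counts, estimated by RSEM and not scaled for depth, with TPM values, scaled to 1000000 per library, and FPKM values. The deposited expected counts served for all main results, the TPM values for levels between genes and as an alternative, and the deposited FPKM values for no result. RSEM divides reads between similar transcripts, so gene lengths and counts of multi-transcript genes are estimates.

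Expected counts were rounded to compute TMM factors with edgeR 4.0.16 in R 4.3.3. Changes used a pseudocount of 1, a minimum of 10 expected counts in 1 or more libraries and a threshold of 2-fold. Without replicates no p-value was computed, and the intervals are exact Clopper-Pearson intervals of 95%. The depth of 2253748 to 3890334 counts limits precision, and a count of 3 was taken as the smallest that shows a gene. The 10 genes, 4 partner lists and 8 marker lists were chosen with earlier results of these data known. Named genes are the 10, up to 4 genes per partner list with the largest change on any day among the 8273 genes with 100 or more counts in 1 or more libraries, 3 profile neighbours per gene, and markers. Symbols came from GENCODE M21 for 27247 of 27729 genes, with coordinates on GRCm38. Alternatives were DESeq2 1.42.0 size factors, CPM without TMM factors, TPM as deposited or centred, a pseudocount of 5, other filters, a 4-fold threshold, and library sizes without Gm42418 and Lars2; TPM with 1 fixed length per gene was a later choice, made once values were known. The computations, in Python 3.11.15 (pandas 2.3.3, numpy 2.4.6, scipy 1.17.1, with figures in matplotlib 3.10.9), were tested on simulated data.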

Additional observations from a re-analysis of the deposited data

How the results depend on the processing

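Of 70 changes of the 10 genes, 27 were over 2-fold, and none of these 27 changed sign under any alternative that kept the gene. Of the 27, 1 was no longer over 2-fold with CPM, 0 with TPM, 2 with centred TPM and 1 with fixed-length TPM, and 6, 14, 4 and 15 other changes passed 2-fold there. DESeq2 size factors, a pseudocount of 5, no filter and library sizes without Gm42418 and Lars2 changed no sign and no call of the 70, although DESeq2 put the day 10 median at 0.50. Requiring 10 counts in every library left out Eln and gave medians of −0.042, 0.35 and 0.091 on days 5, 10 and 14 and 0.48 from day 2 to day 5, with 1 gene above on day 5. CPM without TMM factors gave medians of 0.48, 1.02 and 0.79 on days 5, 10 and 14, 1.32 from day 2 to day 5 and −0.44 from day 10 to day 14, with 5 genes above and 1 below on day 10. TPM gave −1.30, 0.80, 1.45 and 1.29 on days 2, 5, 10 and 14, and 1.38, 1.01 and −0.68 over the steps, with 4 genes above on day 5, 7 on day 10, and 5 over the step between them. With the TPM median of all genes set to 0, the medians were −1.10, 0.19 and 0.36 on days 2, 5 and 10, 0.53 from day 2 to day 5 and −0.44 from day 10 to day 14, with 3 genes below on day 5 and 0 below from day 10 to day 14. TPM with 1 fixed length per gene gave −1.01, 0.76, 1.64 and 1.25 on the 4 days and 1.71, 1.00 and −0.59 over the steps, with 4, 8, 8 and 4 genes above (day 5, day 10, and the first and middle steps) and 1 and 2 below (day 10 and the last step). At 4-fold, 0, 1 and 0 genes were above (day 5, and the first and middle steps) and 1 and 0 below (day 10 and the last step). The TPM medians include the shift of all genes given in the report, and for the other differences the cause was not tested. Over all genes kept, counts above and below on day 10, 3826 and 2974 with normalized counts, were 5242 and 1929 with CPM, 7057 and 904 with TPM, 6939 and 917 with fixed lengths, 1801 and 2413 with 10 counts in every library and 1850 and 1057 at 4-fold. On day 14 they were 3268 and 2657, against 5548 and 930 with TPM, and on day 5 they were 2690 and 1821, against 4269 and 531. No paired analysis was possible because each time point has 1 library, and for the same reason no replicate could be left out. The depth limits Eln on day 2, where 2 counts stand behind the value.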
